A study of Mus musculus with 9 samples.

Results

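The solute carriers of T follicular helper (Tfh) cells were examined in mice with and without a mutant Tgfbr1 allele. Tfh cells are CD4+ T cells that help B cells in germinal centres. Messenger RNA was measured by RNA-seq in Tfh cells sorted from Peyer's patches, lymphoid follicles in the wall of the small intestine, by their CD4, CXCR5 and PD1. Mice heterozygous for a mutant Tgfbr1 allele gave 5 libraries, called WT/mut and numbered 6 to 10. Their wild-type littermates gave 4 libraries, called WT and numbered 1, 3, 4 and 5. Tgfbr1 is the type I receptor for TGF-beta, and the study's title concerns responses of T cells to TGF-beta. The labels do not say what the mutation is or which cells carry it, and give no age, sex or sorting day. Nor do they tie libraries to animals. The p-values therefore weigh differences only against the spread among these 9 libraries, which may be technical in part.

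Members were chosen by symbol and level: genes whose symbol starts with Slc and a number, with a mean of at least 5 CPM (the count of a gene scaled to the library's total) over the 9 libraries. Of 377 such symbols among the 54146 genes of the table, 170 reached that level. Slc2a1, Slc2a3, Slc16a1, Slc16a3 and Slc25a20 were left out by name, which leaves 165 members. All levels given below are CPM with library totals scaled by edgeR's TMM factors, except where the choice of members is described, which used unscaled totals. The choice used the level over all libraries and not the genotype, but a gene can reach the minimum through 1 genotype. Slc51a did so at 10.4 CPM in WT and 1.87 CPM in WT/mut (TMM scaled). Slc6a19 at 7.86 and 3.77 CPM and Slc15a2 at 8.41 and 4.04 CPM did too. Such members are part of the counts below. Slc25a26, which stayed outside, stood at 3.60 CPM in WT and 5.70 CPM in WT/mut. The other 207 symbols lay below the minimum, and 24 of them had no count in any library. Just inside it were Slc22a17 at 5.32, Slc4a5 at 5.42 and Slc6a19 at 5.54 CPM, and just outside were Slc38a6 at 4.92, Slc40a1 at 4.76 and Slc25a26 at 4.75 CPM. By their symbols, 161 members are carriers of 44 families. The other 4 bear a carrier's name without being one, such as Slc9a3r1, the membrane scaffold NHERF1.

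Solute carriers are membrane proteins that move amino acids, sugars, nucleosides, vitamins, metals and inorganic ions across the plasma membrane or the membranes of organelles. Some run down the gradient of their substrate and others are coupled to sodium, protons or a counter-substrate. In T cells, uptake of amino acids through Slc7a5 with its partner subunit Slc3a2, and of glutamine through Slc1a5, is known to rise with activation and to feed mTORC1 signalling and the Myc programme, while the Slc25 family links the mitochondrial matrix to the cytosol.

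Total counts per library lay between 29488783 and 43872686. Between 17904 and 20264 genes had a count in 8 of the libraries, against 30143 in WT/mut 7. The level of Tgfbr1 itself was 73.6 ± 16.5 CPM over the 5 WT/mut libraries (SD) and 77.0 ± 20.2 CPM over the 4 WT libraries (SD). The 8 Tfh markers summed to between 6074 and 6391 CPM in WT/mut and between 6148 and 7523 CPM in WT, so the sorted cell type was present in every library. Genes of other cell types were found too. The 8 plasma cell genes summed to 411 to 1384 CPM in WT/mut against 89.9 to 387 CPM in WT, the 8 B cell genes to 127 to 457 against 62.7 to 222 CPM, and 7 red cell genes to 401 to 870 against 98.5 to 282 CPM, with Epb42 at 0. Most of the plasma cell sum came from 3 genes, Igha, Igkc and Jchain, whose means over the WT/mut libraries were 401, 343 and 164 CPM. Of the 7 plasma cell genes that edgeR tested, 6 were higher in WT/mut and 1, Sdc1, was lower (log2 fold change -0.21 ± 0.68 SE). Tnfrsf17 was too low to test, and Iglc1 reached 125 CPM in WT/mut 6 alone. The 8 epithelial genes summed to 28.1 to 218 against 37.3 to 410 CPM. Myeloid (159 to 407 against 154 to 328 CPM) and stromal sums (167 to 225 against 143 to 199 CPM) overlapped between the genotypes. The part of these cells in the results was not tested except where a value is given below.

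The level of a carrier can be compared with that of another only per length, so levels between genes are given as CPM per kilobase of exon, as the mean over all 9 libraries. On this scale the highest member was Slc25a5, the mitochondrial ADP/ATP exchanger, at 484 CPM per kilobase. It was followed by the scaffold Slc9a3r1 at 137, the endosomal sodium/proton exchanger Slc9a9 at 109.5 and the sugar carrier Slc50a1 at 108 CPM per kilobase. The leading member of a substrate class was Slc7a10 (small neutral amino acids, 60.1 CPM per kilobase) for amino acids, Slc29a1 (the equilibrative nucleoside transporter ENT1, 54.4) for nucleosides and Slc44a2 (a choline transporter-like protein, 52.7) for lipids and choline. Slc35a4 led the nucleotide sugar family at 65.7 and Slc41a1, a magnesium transporter, the iron, copper and magnesium group at 30.5 CPM per kilobase. Slc39a7, which releases zinc from the endoplasmic reticulum, led the zinc class at 62.3 CPM per kilobase, but 80.7% of its exonic bases are shared with Gm20427 on the same strand. The lowest class leader was Slc10a3, of the bile acid carrier family, at 13.0 CPM per kilobase. Of the activation-linked amino acid carriers, Slc3a2 stood at 39.9, Slc1a5 at 38.1 and Slc7a5 at 4.74 CPM per kilobase, so the light chain Slc7a5 was far below its partner. Of 21 carriers looked up by name for their known part in T cells, Slc15a3, Slc39a8, Slc40a1 and Slc4a1 were no members, with mean levels of 1.85, 3.34, 4.76 and 0.0695 CPM.

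**Figure D1:**
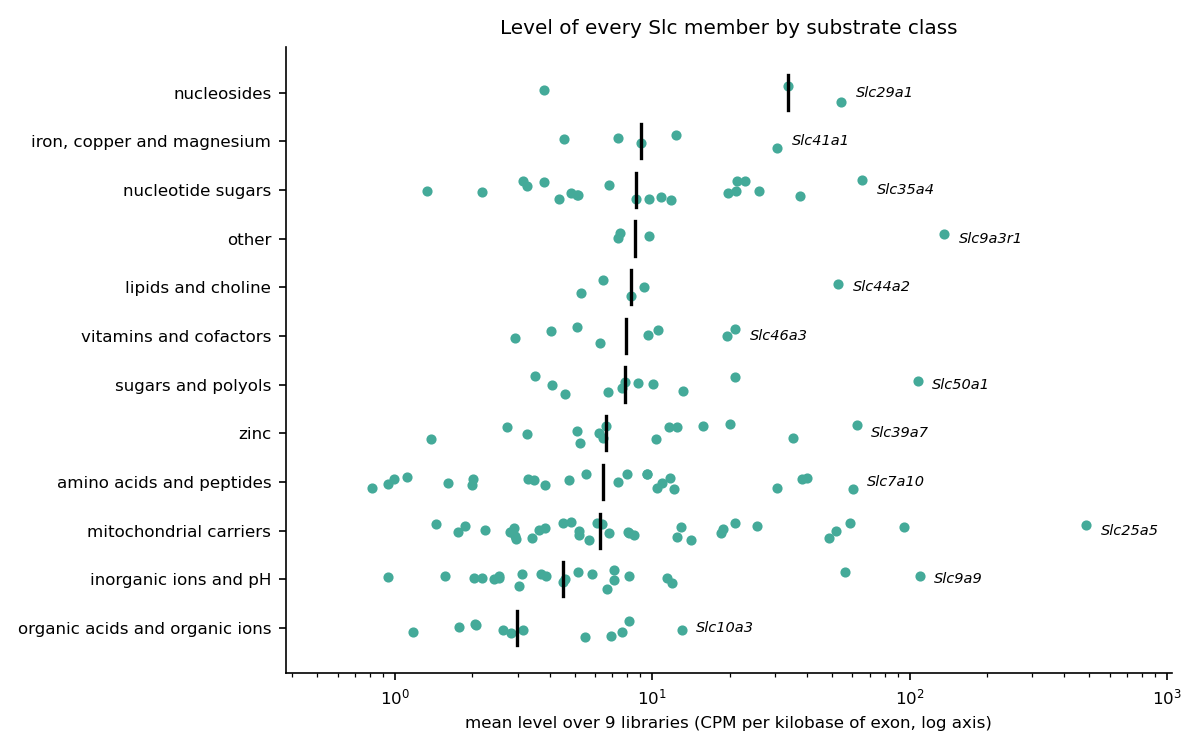
Mean level over the 9 libraries of each member (points, CPM per kilobase of exon on a log axis) by substrate class. Slc25a5 stands apart at 484 CPM per kilobase, and the highest level differs widely between the classes.

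The main comparison asked whether a mutant Tgfbr1 allele goes with another level of any carrier. All 15521 genes with enough counts were tested with edgeR's quasi-likelihood test, with Benjamini-Hochberg adjustment over all of them, and all 165 members were among them. Of the members, 0 passed an adjusted p of 0.05, beside 0.122% of all genes tested (19 genes). DESeq2, run as an alternative, called 9 members, 3 higher and 6 lower in WT/mut, beside 2.86% of all genes it tested (499 of 17445), and limma-voom called 0 members beside 0.116% of all genes. At an unadjusted edgeR p under 0.05 there were 22 members, or 13.3%, beside 12.2% of all genes tested: 9 members were higher (5.45%, beside 5.69%) and 13 lower (7.88%, beside 6.46%) in WT/mut. That share lies near the background. The background holds low-count genes too. Of the 10076 genes with a mean of at least 5 CPM, 673 were higher and 892 lower at this p, a larger share in each direction than among the members. The direction was less even. The log2 fold change (WT/mut over WT) was negative for 108 members, or 65.5%, beside 49.8% of all genes tested, and its median was -0.11 beside 0.00. Among the 10076 genes with a mean of at least 5 CPM, 5469 were negative and the median was -0.03. The plasma cell sums given above did not overlap between the genotypes, and with that sum as a covariate the members' median was -0.03 with 90 of 165 negative.

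Most carriers were measured closely enough to bound a change. The fitted fold change was under 1.5-fold in either direction for 156 of 165 members, and for 98 members the whole interval of 2 SE around it lay within 1.5-fold. The 9 members beyond 1.5-fold were Slc51a, Slc6a20a, Slc5a1, Slc6a19, Slc15a2, Slc26a6, Slc31a1 and Slc5a6 on the lower side and Slc25a37 on the higher. Slc15a2, a peptide importer, was at 3.43, 3.98, 9.02, 0.214 and 3.53 CPM in WT/mut and 10.7, 8.44, 5.44 and 9.05 CPM in WT, with WT/mut 9 far below all others (log2 fold change -1.05 ± 0.65 SE). Slc5a6, the sodium-coupled importer of biotin and pantothenate, was at 6.62, 6.49, 11.7, 10.4 and 11.3 CPM in WT/mut, at 6.86 and 8.15 CPM in WT 3 and WT 4 and at 21.5 CPM in WT 5, with WT 1 slightly higher still (log2 fold change -0.65 ± 0.37 SE, and -0.38 ± 0.38 SE without WT 1). Of the closely bounded members, the endosomal exchanger Slc9a9 is 1 example, at 636 ± 39.8 CPM in WT/mut (SD, n = 5) and 604 ± 38.1 CPM in WT (SD, n = 4), with an interval of -0.09 to 0.24 on the log2 scale. Slc44a2 is another, with an interval of -0.16 to 0.16 around a log2 fold change of -0.00 ± 0.08 SE.

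The CPM ranges of the 2 genotypes did not overlap for 11 members, or 6.67%, beside 4.46% of all genes tested. Of these, 9 were lower in every WT/mut library (5.45%, beside 2.38%): Slc31a1, Slc51a, Slc35b2, Slc6a20a, Slc25a3, Slc33a1, Slc5a1, Slc25a51 and Slc37a3. The other 2 members, Slc43a1 and Slc39a9, were higher in every WT/mut library (1.21%, beside 2.09%). Among these 11, Slc51a, Slc6a20a and Slc5a1 belong to the intestinal carriers described further on. Of the 10076 genes with a mean of at least 5 CPM, 308 were lower and 238 higher in every WT/mut library.

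**Figure D2:**
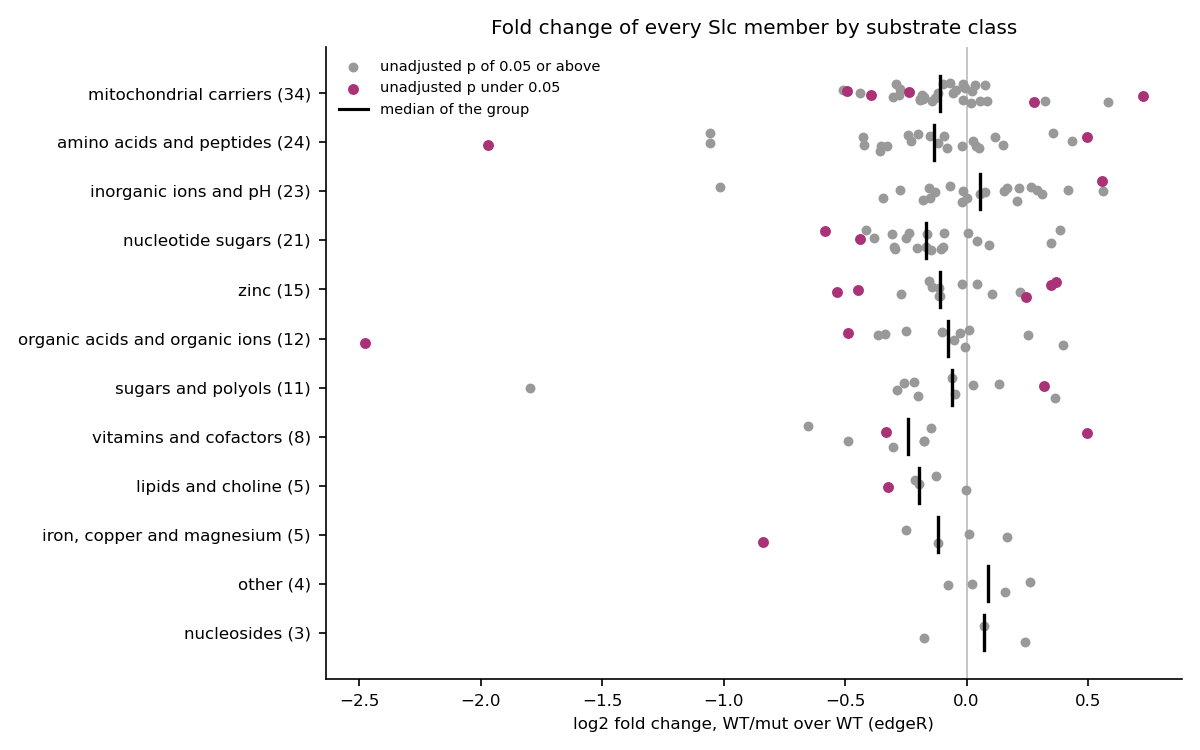
Log2 fold change (WT/mut over WT, edgeR) of each of the 165 members by substrate class, with the number of members of a class in brackets. Most points lie within 0.5 of 0, and the 3 points farthest to the left, Slc51a (-2.48), Slc6a20a (-1.97) and Slc5a1 (-1.80), are carriers of the intestinal epithelium.

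The promoters of a few of the members on which the results turn are shown first, so that sequence and level can be read together. They are the 250 bases before the RefSeq start on GRCm38.p6, written 5′ to 3′ on the gene's strand. Capitals mark the E-box CACGTG, the site read by Myc, Usf and the Tfe3 family, where the first 3 hold it. Those 3 are the member of lowest p, the amino acid carrier that was higher in every WT/mut library, and the bile acid carrier with the largest fold change. In Slc39a11 and Slc30a1 capitals mark the pattern TGCNCNC, read on either strand. It is a loose form of the metal response element bound by the zinc sensor Mtf1, and a match need not be a site of Mtf1. Slc30a1 is the textbook target of that sensor.
Slc31a1: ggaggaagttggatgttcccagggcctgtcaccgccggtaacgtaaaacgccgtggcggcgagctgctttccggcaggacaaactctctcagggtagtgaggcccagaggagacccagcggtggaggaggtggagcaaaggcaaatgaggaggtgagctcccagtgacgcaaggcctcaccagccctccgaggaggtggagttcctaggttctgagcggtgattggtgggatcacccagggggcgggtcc
Slc43a1: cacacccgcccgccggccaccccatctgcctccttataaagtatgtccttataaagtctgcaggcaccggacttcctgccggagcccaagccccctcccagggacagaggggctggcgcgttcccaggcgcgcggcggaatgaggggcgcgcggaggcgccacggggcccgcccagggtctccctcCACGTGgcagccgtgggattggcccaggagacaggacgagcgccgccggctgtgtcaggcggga
Slc51a: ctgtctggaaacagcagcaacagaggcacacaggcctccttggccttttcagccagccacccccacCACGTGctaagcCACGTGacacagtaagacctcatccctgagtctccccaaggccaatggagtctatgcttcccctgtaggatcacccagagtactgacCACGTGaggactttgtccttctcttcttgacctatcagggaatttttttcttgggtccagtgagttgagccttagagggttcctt
Slc39a11: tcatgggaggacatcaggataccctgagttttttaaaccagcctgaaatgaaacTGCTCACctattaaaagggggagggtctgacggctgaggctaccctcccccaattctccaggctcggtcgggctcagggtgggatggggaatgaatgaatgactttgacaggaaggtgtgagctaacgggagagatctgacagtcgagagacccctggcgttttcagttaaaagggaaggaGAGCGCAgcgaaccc
Slc30a1: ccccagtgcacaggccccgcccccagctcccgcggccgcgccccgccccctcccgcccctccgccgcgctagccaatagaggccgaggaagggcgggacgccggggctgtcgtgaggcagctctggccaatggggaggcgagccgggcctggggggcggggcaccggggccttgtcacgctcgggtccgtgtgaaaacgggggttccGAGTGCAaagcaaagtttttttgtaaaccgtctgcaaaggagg
The windows lie at chr4:62360451-62360700, plus strand (Slc31a1), chr2:84840073-84840322, plus strand (Slc43a1), chr16:32487880-32488129, minus strand (Slc51a), chr11:113650093-113650342, minus strand (Slc39a11) and chr1:191906531-191906780, plus strand (Slc30a1). The E-box of Slc43a1 begins 64 bases before the start, and those of Slc51a at 184, 172 and 85 bases. The TGCNCNC matches of Slc39a11 begin at 196 and 15 bases and that of Slc30a1 at 43 bases. No CACGTG stands in the window of Slc31a1. The window of Slc43a1 lies inside the span that GENCODE gives this gene, since the annotations start it at different bases.

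Of the 165 members, 127 were found in the RefSeq promoter table. The E-box CACGTG stood in the window of 21 of them (16.5%), beside 6.86% of all 27025 genes of the table. Of these 21, 6 had positive fold changes, Slc43a1 and Slc25a36 among them, and 15 had negative ones, among them Slc51a, Slc33a1, Slc25a13 and Slc5a1, beside 108 of 165 negative over all members. The loose metal response pattern TGCNCNC stood in 53.5% of the members, beside 47.2% of all genes, and in 8 of 12 zinc members. The amino acid response element TGATGNAA, on either strand, stood in 3.15% beside 3.91%, and the SMAD palindrome GTCTAGAC in 0 members beside 0.200% of all genes. The last bases of CACGTG can be the first of TGCNCNC, so matches of both may share bases. Such matches describe the letters of these windows and were not tested against the levels. The genes of the promoter table were taken whatever their level, unlike the members. Shares over genes of like level were not computed, so none of these shares can be called particular to the carriers.

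The member of lowest p was Slc31a1 (CTR1, ENSMUSG00000066150.12, chromosome 4, 62360727 to 62391769 on GRCm38), the high-affinity copper importer of the plasma membrane. In WT/mut replicates 6 to 10 it stood at 25.0, 16.8, 24.9, 23.4 and 26.1 CPM, and in WT replicates 1, 3, 4 and 5 at 51.5, 31.9, 40.9 and 42.2 CPM, an order kept in all value lists that follow. Every WT/mut library lay below every WT library, with WT/mut 7 lowest and WT 1 highest. Its log2 fold change of -0.84 ± 0.17 SE had an edgeR adjusted p of 0.0987. By exact permutation, two-sided, p was 0.00794, the smallest that splits of 9 libraries into 5 and 4 allow. The adjusted p missed the threshold. DESeq2 gave an adjusted p of 0.000616, and edgeR with the summed epithelial markers as a covariate, chosen after the data were seen, 0.0498. Over all alternatives the adjusted p ran up to 1.00, an upper value that many other members, such as Slc43a1 and Slc25a5, share. With the plasma cell sum as a covariate, which cannot be told apart from genotype here, the log2 fold change was -0.51 ± 0.31 SE. Of the metal carriers beside it, Slc11a2, the iron importer DMT1, ranged from 59.4 to 90.2 CPM in WT/mut and from 76.6 to 90.4 CPM in WT (log2 fold change -0.12 ± 0.12 SE). Slc41a1 stood at 158 ± 7.80 CPM (SD, n = 5) and 141 ± 42.4 CPM (SD, n = 4). In the iron, copper and magnesium group 1 of 5 members, Slc31a1, had an unadjusted p under 0.05, beside 12.2% of all genes tested.

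**Figure D3:**
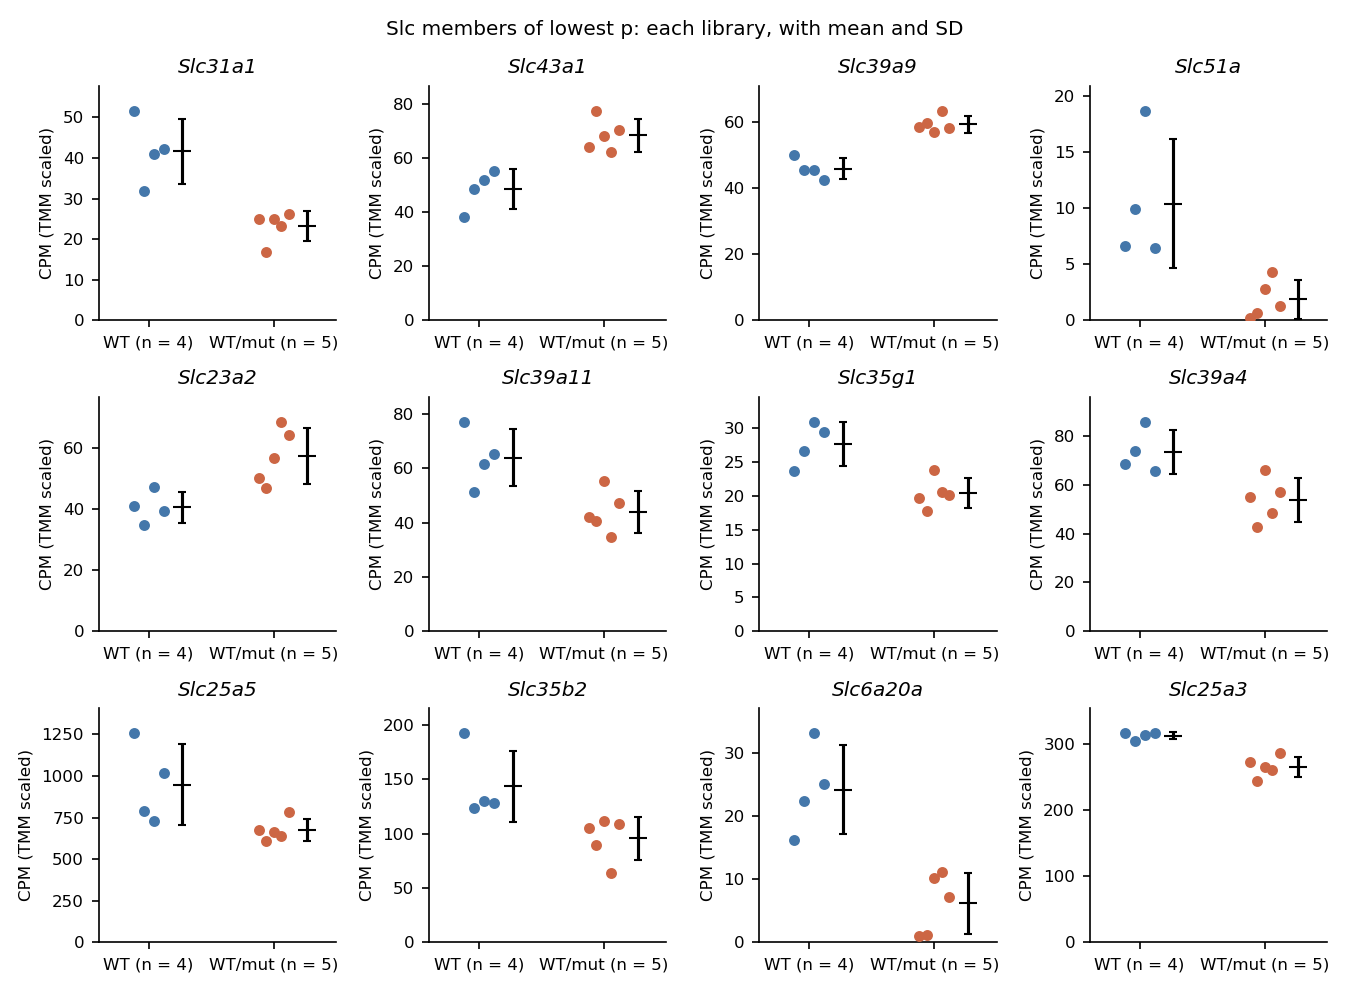
Level (CPM scaled by TMM) of the members of lowest p in each library, by genotype, with the mean and SD of each group (n = 4 WT, n = 5 WT/mut). In the Slc31a1 panel all 5 WT/mut points (16.8 to 26.1 CPM) lie below all 4 WT points (31.9 to 51.5 CPM), and in the Slc39a9 panel all WT/mut points (56.9 to 63.4 CPM) lie above the WT points (42.5 to 50.2 CPM).

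Zinc carriers come in 2 families: Slc39 (ZIP) proteins bring zinc into the cytosol and Slc30 (ZnT) proteins take it out. At an unadjusted p under 0.05 there were 5 of 15 zinc members, 3 higher and 2 lower in WT/mut, beside 12.2% of all genes tested. All were of the Slc39 family, and with 6 Slc30 members a difference between the families was not tested. Slc39a9 (ZIP9, ENSMUSG00000048833.9, chromosome 12, 80643883 to 80683342 on GRCm38) stood at 58.5, 59.8, 56.9, 63.4 and 58.1 CPM in WT/mut and at 50.2, 45.5, 45.7 and 42.5 CPM in WT. Its ranges did not overlap (log2 fold change 0.37 ± 0.09 SE, edgeR adjusted p 0.210, exact two-sided permutation p 0.00794). The counts of this gene were not whole numbers in any library, so part of its reads was shared with other genes in the authors' counting. Slc39a6 and Slc39a10, a pair of zinc importers known to form complexes with each other, lay on the same side with log2 fold changes of 0.25 ± 0.10 SE and 0.35 ± 0.15 SE (edgeR adjusted p 0.368 and 0.387). Slc39a11 lay on the other side. It was at 42.2, 40.5, 55.3, 34.8 and 47.2 CPM in WT/mut and 76.9, 51.3, 61.7 and 65.3 CPM in WT, and only WT/mut 8 reached into the WT range (log2 fold change -0.53 ± 0.15 SE, edgeR adjusted p 0.263). Slc39a4, the zinc importer best known from the gut, is described with the intestinal carriers. Slc30a1, the zinc exporter of the plasma membrane, ranged from 12.6 to 20.1 CPM in WT/mut and from 16.1 to 19.9 CPM in WT (log2 fold change -0.11 ± 0.16 SE).

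The 24 amino acid and peptide carriers split into 8 positive and 16 negative fold changes, with a median of -0.13. The lowest p was that of Slc43a1 (LAT3, ENSMUSG00000027075.16, chromosome 2, 84838850 to 84863594 on GRCm38), a carrier of large neutral amino acids. It stood at 64.1, 77.5, 68.4, 62.2 and 70.4 CPM in WT/mut and 38.2, 48.6, 52.1 and 55.4 CPM in WT. The lowest WT/mut library lay above the highest WT library (log2 fold change 0.50 ± 0.13 SE, edgeR adjusted p 0.209, exact two-sided permutation p 0.00794). The activation-linked carriers were not separated by genotype. Slc1a5 stood at 131, 140.5, 158, 113 and 171 CPM in WT/mut and 256, 146, 136 and 179 CPM in WT, a log2 fold change of -0.33 ± 0.19 SE. Slc3a2 was at 124, 121, 138, 116 and 154 CPM in WT/mut and 201, 147, 129.5 and 135 CPM in WT (-0.23 ± 0.14 SE on the log2 scale). In both, WT 1 was the highest of the 9 libraries, and without it the log2 fold changes were -0.10 ± 0.14 SE for Slc1a5 and -0.06 ± 0.11 SE for Slc3a2. Slc7a5 ranged from 14.9 to 18.9 CPM in WT/mut and from 13.6 to 27.4 CPM in WT, and the log2 interval of 2 SE was -0.55 to 0.25. The glutamine carrier Slc38a1 was measured far more tightly, from 207 to 232 CPM in WT/mut and from 187 to 215 CPM in WT (log2 fold change 0.15 ± 0.08 SE, edgeR adjusted p 0.467). Slc38a2 was at 99.6, 72.1, 58.1, 118 and 81.6 CPM in WT/mut and 46.0, 99.2, 92.0 and 94.4 CPM in WT, with WT 1 the lowest of all. Log2 fold changes of 0.04 ± 0.15 SE, -0.12 ± 0.34 SE and -0.08 ± 0.16 SE were found for Slc7a6, for Slc43a3 and for Slc15a4, the histidine and peptide carrier of lysosomes.

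Of the 34 mitochondrial carriers, 10 had positive and 24 negative fold changes (median -0.11). The most abundant member, Slc25a5, stood at 677, 611, 667, 638 and 785 CPM in WT/mut and 1258, 789, 729 and 1020.2 CPM in WT. WT 1 and WT 5 were highest, and WT 4 fell within the WT/mut range. The expected counts of Slc25a5 were not whole in any library, so part of its reads was shared with other genes. The log2 fold change was -0.49 ± 0.15 SE (edgeR adjusted p 0.283), and it was -0.32 ± 0.12 SE without WT 1. Slc25a3, the phosphate carrier that supplies ATP synthesis, differed less but more evenly: 273, 244, 265, 260.3 and 286 CPM in WT/mut and 317, 304, 314 and 316 CPM in WT, with no overlap (log2 fold change -0.24 ± 0.08 SE, edgeR adjusted p 0.300). On the other side lay Slc25a37, the mitochondrial iron importer mitoferrin 1, best known from red cell precursors. It ranged from 7.49 to 12.5 CPM in WT/mut and from 3.74 to 10.9 CPM in WT, with a log2 fold change of 0.73 ± 0.32 SE (edgeR adjusted p 0.404). The summed red cell genes, 401 to 870 CPM in WT/mut and 98.5 to 282 CPM in WT, were on the same side, and their part in this value was not tested. Slc25a42, the coenzyme A carrier, and Slc25a36, a pyrimidine nucleotide carrier, had log2 fold changes of 0.28 ± 0.11 SE and 0.32 ± 0.16 SE. The aspartate/glutamate carrier Slc25a13 was at -0.39 ± 0.17 SE, and Slc25a51, the mitochondrial NAD carrier, at -0.27 ± 0.13 SE.

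Carriers of nucleotide sugars feed the glycosylation and sulfation of proteins in the Golgi apparatus. Of 21 members, 16 had negative fold changes (median -0.17). Slc35b2, which brings the sulfate donor PAPS into the Golgi, stood at 105, 89.9, 111, 63.4 and 109 CPM in WT/mut and 192, 124, 129.9 and 128 CPM in WT. The groups did not overlap, with WT/mut 9 far below and WT 1 far above the rest (log2 fold change -0.58 ± 0.18 SE, edgeR adjusted p 0.285). Without WT 1 the log2 fold change was -0.40 ± 0.17 SE. Slc35g1 lay at a log2 fold change of -0.44 ± 0.13 SE (edgeR adjusted p 0.276), and Slc35a4 ranged from 169 to 223 CPM in WT/mut and from 199 to 337 CPM in WT. The log2 fold change of Slc35a4 was -0.30 ± 0.16 SE, and -0.08 ± 0.11 SE without WT 1. Slc33a1, which carries acetyl-CoA into the endoplasmic reticulum, ranged from 23.2 to 28.6 CPM in WT/mut and from 31.3 to 35.1 CPM in WT without overlap (log2 fold change -0.32 ± 0.11 SE, edgeR adjusted p 0.314), and 32.0% of its exonic bases are shared with Gm26850 on the opposite strand. The kit does not mark the strand, so reads of a gene and of an opposite partner cannot be told apart. This touches 47 members, none of them over 50% of its exonic bases.

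Among the vitamin and cofactor carriers 7 of 8 fold changes were negative (median -0.24). The exception was Slc23a2 (SVCT2), the sodium-coupled vitamin C importer. It stood at 50.0, 46.8, 56.6, 68.4 and 64.2 CPM in WT/mut and 41.0, 34.7, 47.2 and 39.2 CPM in WT, and the top WT library lay just above the lowest WT/mut library (log2 fold change 0.50 ± 0.14 SE, edgeR adjusted p 0.260). The riboflavin carrier Slc52a2 had -0.33 ± 0.13 SE and the reduced folate carrier Slc19a1 -0.30 ± 0.16 SE on the same log2 scale. All 5 members of the lipid and choline class were negative, with Slc33a1 farthest from 0 at -0.32 and Slc44a2 nearest.

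Inorganic ion and pH carriers were the only class of over 10 members with more positive (13) than negative (10) fold changes, with a median of 0.05. Slc12a2 (NKCC1), the sodium-potassium-chloride importer, ranged from 30.0 to 41.7 CPM in WT/mut and from 24.2 to 37.4 CPM in WT, with a log2 fold change of 0.27 ± 0.15 SE. Slc20a1, a phosphate importer, ranged from 36.3 to 50.0 CPM in WT/mut and from 39.4 to 60.6 CPM in WT, a log2 fold change of -0.13 ± 0.15 SE.

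Among sugar carriers, Slc37a1, an exchanger of glucose 6-phosphate and phosphate, had a log2 fold change of 0.32 ± 0.12 SE and Slc45a4 of 0.36 ± 0.19 SE (0.22 ± 0.16 SE without WT 1). Slc37a3 of the same family ranged from 39.5 to 48.2 CPM in WT/mut and from 48.7 to 58.1 CPM in WT without overlap (log2 fold change -0.22 ± 0.11 SE). Slc50a1 ranged from 143 to 169.9 CPM in WT/mut and from 147 to 195 CPM in WT. The nucleoside carrier Slc29a1 ranged from 169 to 232 CPM in WT/mut and from 203 to 321 CPM in WT, where WT 1 was the highest and the other libraries lay between 202.5 and 205.4 CPM. Its log2 fold change was -0.18 ± 0.16 SE, and it was 0.02 ± 0.12 SE without WT 1. Slc17a5, the sialic acid exporter of lysosomes, had a log2 fold change of -0.49 ± 0.20 SE with an edgeR adjusted p of 0.371.

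A set of 7 members is better known from another cell type. Slc5a1 (the sodium/glucose importer SGLT1), Slc6a19 (the neutral amino acid importer of the gut), Slc6a20a (the proline importer), Slc26a6 (an anion exchanger), Slc51a (a subunit of the bile acid exporter OST), Slc46a1 (the proton-coupled folate importer) and Slc39a4 (the zinc importer ZIP4) are known from the absorptive epithelium of the small intestine. This list was written after the values were seen. All 7 were negative, with a median log2 fold change of -1.06, beside -0.10 over the other 158 members. Slc5a1 stood at 0.962, 2.26, 33.5, 29.4 and 10.5 CPM in WT/mut and 38.1, 38.6, 81.3 and 54.6 CPM in WT. Slc6a20a was at 0.962, 1.26, 10.3, 11.2 and 7.29 CPM in WT/mut and 16.3, 22.5, 33.2 and 25.1 CPM in WT. Slc51a was at 0.210, 0.628, 2.84, 4.34 and 1.32 CPM in WT/mut and 6.65, 9.90, 18.6 and 6.42 CPM in WT. In all 3, WT/mut 6 and 7 held the least, WT/mut 8 and 9 held more than WT/mut 10, and WT 4 held the most.

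Slc51a and Slc6a20a had log2 fold changes of -2.48 ± 0.70 SE and -1.97 ± 0.62 SE, with edgeR adjusted p values of 0.254 and 0.289. DESeq2 called both, with adjusted p values of 0.0201 and 0.0483. Over the other alternatives both adjusted p values ran up to 1.00, an upper value that many other members share. The other 5 lay at -1.80 ± 0.82 SE for Slc5a1, -1.06 ± 0.70 SE for Slc6a19, -1.01 ± 0.47 SE for Slc26a6, -0.49 ± 0.26 SE for Slc46a1 and -0.45 ± 0.14 SE for Slc39a4. Slc39a4 had a pattern of its own. At 54.8, 42.8, 66.1, 48.2 and 57.0 CPM in WT/mut and 68.6, 73.6, 85.6 and 65.4 CPM in WT it was never low, and WT/mut 6 held more of it than WT/mut 9.

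Villus enterocyte genes were low in the same libraries. The sum of Apoa1, Apoa4, Alpi, Anpep, Sis, Lct and Fabp1, a list also written after the values were seen, was 30.3, 19.6, 287, 354 and 186 CPM in WT/mut and 387, 346, 969 and 447 CPM in WT. All 7 genes had negative fold changes, with a median of -1.67. Of the WT/mut libraries, only WT/mut 9 lay above WT 3, the lowest WT library, in this sum. A fit with the sum as a covariate can therefore hardly tell it apart from genotype. With that sum as a covariate, the log2 fold changes were -0.28 ± 0.39 SE for Slc5a1, -0.66 ± 0.28 SE for Slc6a20a, -1.17 ± 0.51 SE for Slc51a, 0.22 ± 0.52 SE for Slc6a19, 0.04 ± 0.25 SE for Slc26a6, -0.05 ± 0.29 SE for Slc46a1 and -0.26 ± 0.17 SE for Slc39a4. The sum of the 8 general epithelial markers was 60.6, 28.1, 105, 218 and 54.9 CPM in WT/mut and 37.3, 179.7, 409.7 and 75.9 CPM in WT, so that WT 1 lay below WT/mut 6. With the epithelial sum as a covariate the log2 fold changes were -1.76 ± 0.71 SE for Slc5a1, -1.83 ± 0.53 SE for Slc6a20a, -2.24 ± 0.51 SE for Slc51a, -0.97 ± 0.66 SE for Slc6a19, -0.76 ± 0.35 SE for Slc26a6, -0.44 ± 0.26 SE for Slc46a1 and -0.38 ± 0.13 SE for Slc39a4. Without WT/mut 6 and 7 they were -1.12 ± 0.41 SE for Slc5a1, -1.34 ± 0.27 SE for Slc6a20a, -1.88 ± 0.52 SE for Slc51a, -0.42 ± 0.30 SE for Slc6a19, -0.50 ± 0.31 SE for Slc26a6, -0.27 ± 0.28 SE for Slc46a1 and -0.36 ± 0.16 SE for Slc39a4. In such bulk libraries, fewer cells of a type and less RNA per cell cannot be told apart. Exons of Slc6a20a share 14.9% of their bases with opposite-strand genes that include Ccr9, which stood at 33.4 ± 6.76 CPM in WT/mut (SD, n = 5) and 21.4 ± 2.79 CPM in WT (SD, n = 4), the other way from Slc6a20a. Exons of Slc51a share 17.7% with Pcyt1a, at 12.4 ± 2.96 CPM in WT/mut (SD, n = 5) and 16.1 ± 3.39 CPM in WT (SD, n = 4).

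**Figure D4:**
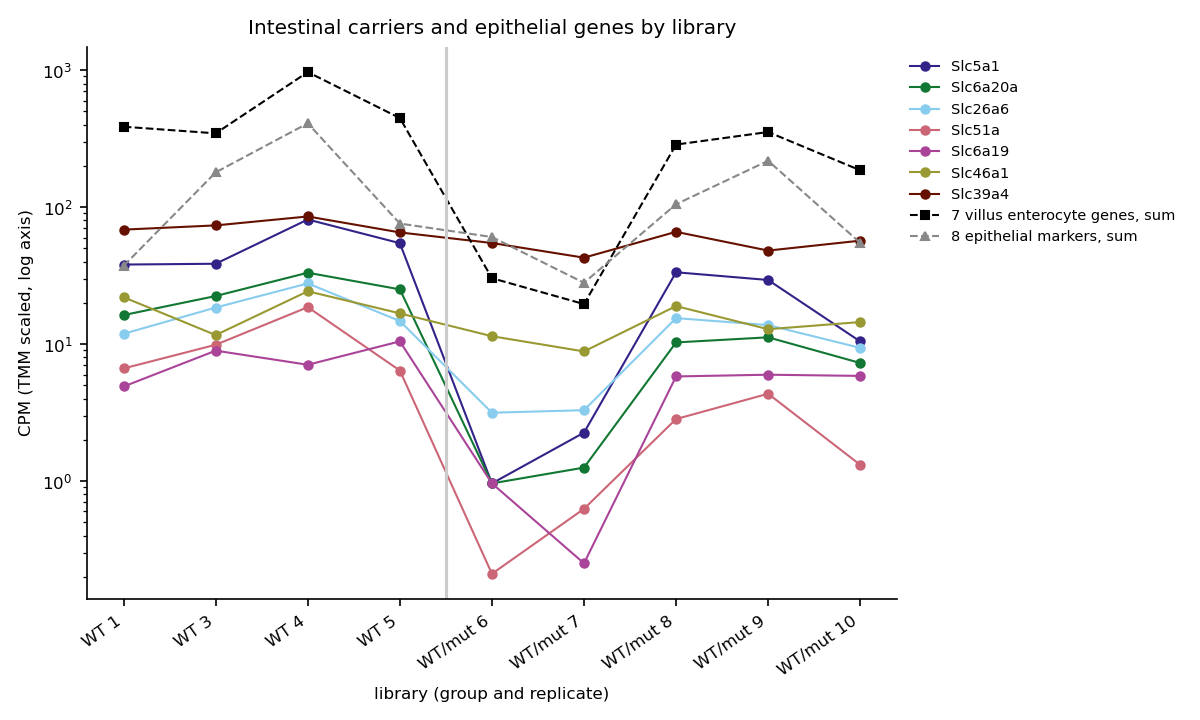
Level (CPM on a log axis) of the intestinal carriers and of epithelial genes in each of the 9 libraries, 4 WT on the left of the line and 5 WT/mut on the right. Slc5a1, Slc6a20a and Slc51a are lowest in WT/mut 6 and 7 (Slc5a1 at 0.962 and 2.26 CPM), while Slc39a4 stays between 42.8 and 85.6 CPM in every library.

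Most of the same carriers set the largest variation among the members. In a principal component analysis of the log2 levels of the 165 members, the first component held 46.9% of the variance and the second 19.4%. WT/mut 6 and 7 lay at -5.36 and -5.22 on the first component, the other WT/mut libraries between -1.30 and 0.63, and the WT libraries between 2.09 and 3.69. The 7 intestinal carriers held 74.9% of the squared loadings of that component, with 28.1% from Slc5a1 alone. Slc46a1 and Slc39a4 held little of it, at 1.07% and 0.542%. Without the 7 intestinal carriers, the first component of the other 158 members held 37.1% of the variance. It set WT 1 (5.10) and WT 5 (1.97) against WT/mut 9 (-3.16), and the remaining libraries of both genotypes lay between -1.89 and 0.14.

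WT 1 held the highest level of 42 of the 165 members and the lowest level of 26. Next among the highest was WT 4, with 28 members. WT/mut 7 was the lowest library for 31 members and WT/mut 9 for 28. Without WT 1 the median log2 fold change of the members was -0.07. The SD of a member's log2 level over the 9 libraries had a median of 0.26 and ran from 0.07 to 1.87.

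**Figure D5:**
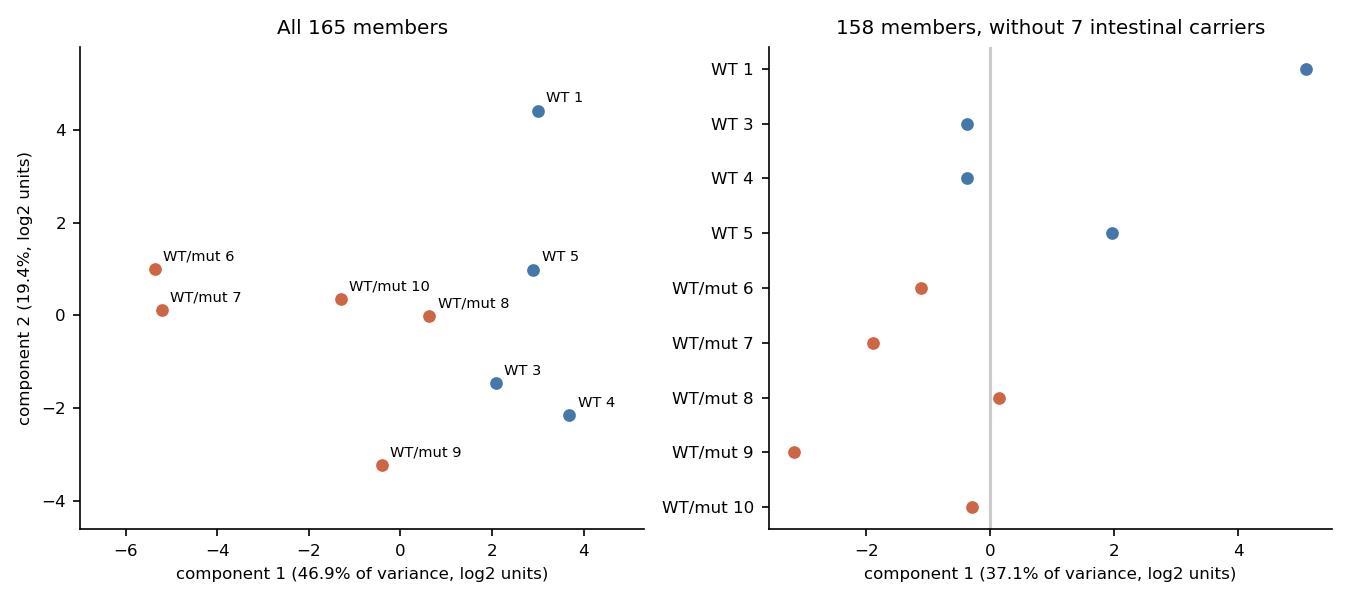
Left, scores of the 9 libraries on the first 2 principal components of the log2 levels of all 165 members; right, scores on the first component of the 158 members without the intestinal carriers. WT/mut 6 and 7 stand apart on the left (-5.36 and -5.22), and WT 1 stands apart on the right (5.10).

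Carriers without an Slc symbol and partner subunits of carriers were counted for context. Of 40 such genes, 37 were in the table and all 37 were tested. None passed an edgeR adjusted p of 0.05, and at an unadjusted p under 0.05 there were 0 higher and 4 lower in WT/mut, beside 12.2% of all genes tested. These were Mfsd14a (log2 fold change -0.45 ± 0.11 SE), Sfxn1, a mitochondrial serine carrier (-0.35 ± 0.10 SE), Mpc1, a subunit of the mitochondrial pyruvate carrier (-0.56 ± 0.18 SE), and Sfxn3 (-0.31 ± 0.13 SE). Their median was -0.20, with 29 of 37 negative, beside 0.00 and 49.8% over all genes tested. Of 33 tested regulators of amino acid supply (mTORC1 amino acid sensing, Myc and the Atf4 response), 19 were positive and 14 negative, with a median of 0.02. Eif2ak4, the kinase GCN2 that senses uncharged transfer RNA, was at 0.49 ± 0.16 SE, and the mTORC1 activators Rragc and Rheb were at -0.37 ± 0.14 and -0.42 ± 0.17 SE. These 3 of 33 had an unadjusted p under 0.05, beside 12.2% of all genes tested, and 0 of the 33 passed the adjusted p.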

How the data were processed

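Messenger RNA of sorted Peyer's patch Tfh cells was sequenced from 5 WT/mut and 4 WT libraries, with 300 pg of RNA each in a SMART-Seq kit that does not mark the strand, per the labels' protocols. Values are expected counts for each gene, estimated and deposited by the authors; cutadapt 2.10, STAR 2.5.3, RSEM 1.3.0, DESeq2 and the mm10 build are named in the submitters' processing notes. No annotation release is named there. Expected counts were rounded to whole numbers. In R 4.3.3, genes passing filterByExpr (minimum count 10, minimum total 15) were tested with edgeR 4.0.16 (TMM, robust quasi-likelihood F test, no covariate), with Benjamini-Hochberg adjustment over all 15521 and a threshold of 0.05. Standard errors were derived from the size of the log2 fold change and its F statistic. Single members were also tested by an exact two-sided permutation of log2(CPM + 1) over all splits into 5 and 4. Principal components used log2(CPM + 1). Alternatives were DESeq2 1.42.0, limma-voom 3.58.1, other scalings and filters, covariates and left-out libraries. Exon lengths and overlaps came from GENCODE M21 on GRCm38, in which all 165 members were found, and promoters from RefSeq (GRCm38.p6).

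Members, substrate classes and lists were chosen with earlier results of these data known. Classes follow the family number. Members named are any called, the 12 of lowest p in each direction, the one of highest level per length in each class and 21 carriers known in T cells where they passed the minimum. Some members that this rule names are not reported here. Slc25a51, Slc37a3, Slc15a2, Slc5a6 and the intestinal carriers Slc5a1, Slc6a19, Slc26a6 and Slc46a1 were named after their values were seen. In 20 members the expected counts were not whole in any library, so their reads were shared with other genes. The edgeR step was tested on simulated data. Libraries of the same genotype always differed by more than sampling noise.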

Additional observations from a re-analysis of the deposited data

Results flagged for a closer look

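In 5 of 94 groups of values checked (47 named members in 2 genotypes), 1 library lay far from the others of its group, a share that chance gives in about 1 of 20 groups. All 5 were in WT 1. Slc29a1, the nucleoside carrier ENT1, was at 320.6 CPM in WT 1 against 202.5 to 205.4 CPM in the other WT libraries. Slc35a4 was at 337.4 CPM against 198.7 to 216.4 CPM. Slc35b2, the Golgi carrier of the sulfate donor PAPS, was at 192.4 CPM against 123.7 to 129.9 CPM. Slc50a1, a sugar carrier, was at 194.6 CPM against 146.9 to 153.7 CPM. Slc38a2, a sodium-coupled importer of small neutral amino acids, was the only one on the low side, at 46.0 CPM against 92.0 to 99.2 CPM. Without WT 1 the log2 fold change of Slc38a2 was -0.14 in place of 0.05, and that of Slc35a4 was -0.08 in place of -0.30.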

How the results depend on the processing

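All 165 members passed the low-count filter, so the count of members whose ranges did not overlap has no value without it. The number of members past an adjusted p of 0.05 was 0 in edgeR under the other scalings, filters and left-out libraries. It was also 0 in limma-voom, which was run only with the main scaling and filter on all 9 libraries. It was 9 with DESeq2, beside 2.86% of all genes it tested, and 2 with the epithelial sum as a covariate. Members with an unadjusted p under 0.05 numbered 22 in the main edgeR fit, beside 12.2% of all genes tested. They numbered from 20 to 28 with a library left out, 37 with the epithelial sum and 12 with the plasma cell sum. The shares over all genes in these other edgeR fits are not given here, so these counts show no change particular to the members. The median log2 fold change of the members was -0.11 and moved to -0.030 with the plasma cell sum. That sum did not overlap between the genotypes, so its fit cannot tell it apart from genotype. Members whose ranges did not overlap numbered 11, from 13 to 18 with a library left out (17 without WT/mut 8, WT 1 or WT 4 and 18 without WT 5), and 21 without WT/mut 6 and 7. That count grows by construction as fewer libraries remain. Of 47 named members, 26 kept the sign of the log2 fold change in all 20 alternatives and 21 did not, and 9 passed the threshold in at least 1 alternative. The cause of the sign changes was not tested. Log2 fold changes of the other sign were as follows. With the plasma cell sum as a covariate: Slc1a5 0.25, Slc20a1 0.15, Slc25a5 0.11, Slc29a1 0.16, Slc30a1 0.11, Slc35a4 0.070, Slc38a2 -0.047, Slc39a7 0.14, Slc3a2 0.21, Slc41a1 -0.33, Slc43a3 0.87, Slc45a4 -0.24, Slc46a3 0.082, Slc50a1 0.23, Slc7a10 0.27 and Slc9a3r1 0.11. With unscaled totals: Slc10a3 0.023, Slc39a7 0.018, Slc44a2 0.031 and Slc7a10 0.020. With the villus enterocyte sum: Slc10a3 0.011, Slc20a1 0.017, Slc39a7 0.051, Slc44a2 0.019, Slc7a5 0.019 and Slc9a3r1 0.0025. With the epithelial sum: Slc10a3 0.047 and Slc44a2 0.016. Without WT/mut 6 and 7: Slc39a7 0.049, Slc43a3 0.021, Slc44a2 0.0073 and Slc50a1 0.0058. With RLE factors: Slc44a2 0.0032. Without a low-count filter: Slc44a2 0.0047. With detected genes as a covariate: Slc39a7 0.048. With limma-voom: Slc7a10 0.0035. With each library left out in turn, values ran over these ranges: Slc10a3 -0.14 to 0.058, Slc15a4 -0.16 to 0.021, Slc20a1 -0.21 to 0.0064, Slc29a1 -0.24 to 0.023, Slc38a2 -0.14 to 0.16, Slc39a7 -0.11 to 0.087, Slc41a1 -0.0062 to 0.30, Slc43a3 -0.31 to 0.078, Slc44a2 -0.033 to 0.022, Slc50a1 -0.095 to 0.047, Slc7a10 -0.12 to 0.12, Slc7a5 -0.28 to 0.10, Slc7a6 -0.031 to 0.14, Slc9a3r1 -0.17 to 0.016. No paired analysis was possible because the groups share no replicate number. At these depths the precision of the members was set by the spread between libraries. The marker covariates, the omission of WT/mut 6 and 7 together and of the intestinal carriers were chosen after the data were seen.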

Other observations

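Some carriers of the intestinal epithelium lay below the level that made a gene a member. Slc51b, the partner subunit of Slc51a in the bile acid exporter, averaged 0.272 ± 0.223 CPM (SD) over the 5 WT/mut and 1.65 ± 1.14 CPM (SD) over the 4 WT libraries. Slc9a3, the sodium/proton exchanger of the brush border, averaged 0.407 ± 0.658 CPM (SD) in WT/mut and 2.78 ± 2.63 CPM (SD) in WT. Of 17 intestinal carriers listed after the values were seen, 15 passed the filter for edgeR, and all 15 had negative log2 fold changes with a median of -1.08. None passed an edgeR adjusted p of 0.05, 5 had an unadjusted p under 0.05, beside 12.2% of all genes tested, and DESeq2 called Slc51a and Slc6a20a among them, beside 2.86% of all genes it tested. A list chosen after its values were seen supports nothing by these counts. The other 2 were too low for edgeR and lay the other way. Slc10a2, the ileal bile acid importer, was at 0.631, 0.220, 0, 0 and 0.548 CPM in WT/mut replicates 6 to 10 and had 0 counts in all 4 WT libraries, with a DESeq2 adjusted p of 0.216. Slc15a1, a peptide importer, averaged 0.197 ± 0.212 CPM (SD) in WT/mut and 0.152 ± 0.137 CPM (SD) in WT, with a DESeq2 adjusted p of 0.938.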
